A study of Mus musculus with 3 samples.

Results

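Scavenger and efferocytosis receptors are the surface proteins with which macrophages take up modified lipoproteins, microbial material and dying cells. The 10 genes described here were chosen by symbol and are *Msr1*, *Marco*, *Cd36*, *Scarb1*, *Stab1*, *Mrc1*, *Mertk*, *Axl*, *Trem2* and *Timd4*, 10 of the 32285 genes in the matrices. Scavenger receptors such as MSR1, MARCO and CD36 bind polyanionic ligands, oxidised lipoproteins and bacterial surfaces, and CD36 also works beside TLR2 in the sensing of lipoproteins. Efferocytosis receptors recognise phosphatidylserine on apoptotic cells, either directly, as TIMD4 does, or through bridging ligands, as the receptor tyrosine kinases MERTK and AXL do with GAS6 and protein S. TREM2 binds lipids and apolipoproteins and signals through the adaptor TYROBP.

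The samples were bone marrow derived macrophages (BMDMs) of C3H/HeN mice, labelled female and 6 to 8 weeks old, grown in medium conditioned by L929 cells. Cells labelled UI received PBS, and those labelled LP1 and LP4 received lipoproteins purified from *Borrelia burgdorferi* (*Bb*LP), the agent of Lyme disease, at 1 µg/mL for 1 or 4 hours. By the methods of the study UI was collected at 4 hours. In LP1 over UI the lipoproteins and the time in culture thus cannot be told apart. The culture methods describe pooled marrow, while those of the sequencing describe BMDMs of 3 mice treated separately. Cells of 3 wells were pooled in each library, and the labels do not separate the mice. The labels name no deletion and no transgene. The cells are macrophages made in culture and stand for no single tissue. Each group was 1 library of 10x Genomics 3′ single-cell RNA-Seq. No library was repeated, so differences between libraries have no replicate check and no p-value is given. All intervals are exact 95% intervals that cover counting error only.

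After cells with over 500 unique molecular identifiers (UMIs), over 500 genes and under 5% mitochondrial UMIs were kept, UI held 6071 cells with 35688939 UMIs, LP1 5065 with 52475723 and LP4 4670 with 61402275. The median depth was 5133, 9343 and 11784 UMIs per cell, so every level is given as CPM, the UMIs of a gene summed over the cells of a library and scaled to a total of 1000000. From 4 to 10 barcodes were shared by each pair of libraries. The macrophage markers summed to 13607 CPM in UI, 13816 in LP1 and 13391 in LP4, with none of the 10 at 0. Neutrophil markers summed to 396, 299 and 570 CPM, dendritic cell markers to 234, 237 and 222 CPM and stromal markers to 8.88, 9.57 and 27.6 CPM.

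Of the 10 receptors, 9 reached 10 CPM in at least 1 library, as did 8103 genes in all. Together the 10 took 3256 CPM in UI, 3184 in LP1 and 3048 in LP4. The total therefore moved little while its makeup moved more. *Trem2* supplied 49.6% of the receptor UMIs in UI, 47.4% in LP1 and 31.6% in LP4, and *Msr1* 14.3%, 15.8% and 28.2%. A 3′ UMI count is taken from the end of a transcript and was not divided by gene length.

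A gene was called when its CPM differed by at least 2-fold between libraries. None of the 9 was called in LP1 over UI, where 0.765% of all genes were called higher and 0.506% lower. In LP4 over UI 0 were called higher against 10.5% of all genes, and 1, *Stab1*, was called lower against 9.95%. In LP4 over LP1 1, *Axl*, was called higher against 8.59%, and 0 were called lower against 7.75%. These counts lie near the shares over all genes and rest on receptors close to the threshold. With TMM factors or median-of-ratios factors, which add 0.17 and 0.21 to every log2 ratio of LP4 over UI, *Msr1* and *Axl* passed 2-fold and *Stab1* did not. The same factors changed the split over all genes in LP4 over UI to 13.2% higher and 7.23% lower, and to 13.9% and 6.81%. The median log2 ratio of the 9 receptors was -0.10 in LP1 over UI, 0.04 in LP4 over UI and -0.05 in LP4 over LP1, beside -0.02, -0.08 and -0.07 over the 8103 genes.

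**Figure D1:**
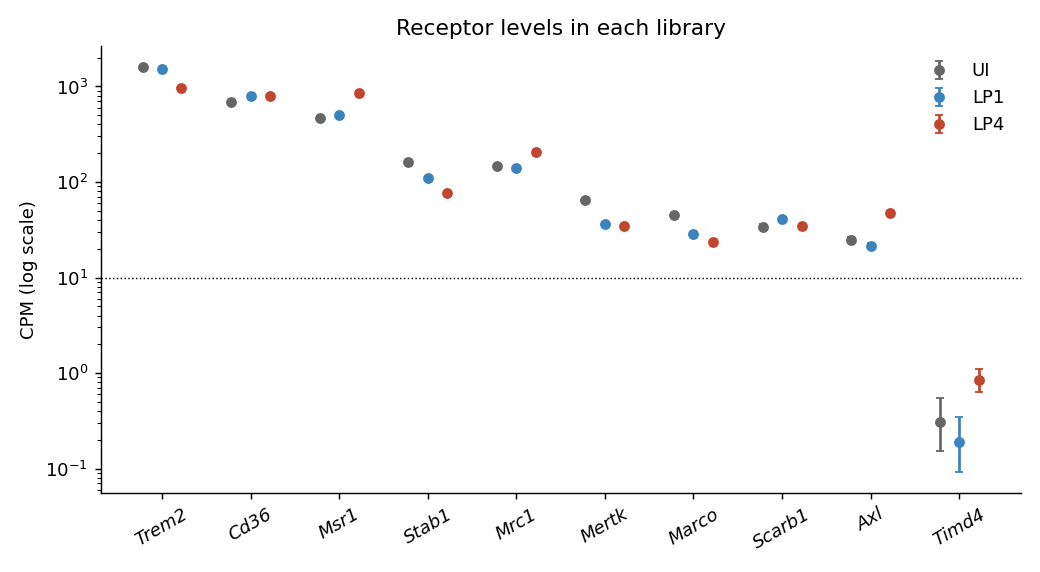
Level of each receptor in UI, LP1 and LP4, as CPM on a log axis, with exact Poisson 95% intervals, most of which are smaller than the points. *Trem2*, *Stab1* and *Marco* were lowest in LP4, *Msr1*, *Mrc1* and *Axl* were highest there, and only *Timd4* lay below 10 CPM, the dotted line.

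The 3 receptors of which the promoters are shown first are *Mertk*, *Axl* and *Trem2*, the last being the receptor with the most UMIs. *Mertk* and *Axl* are related kinases whose library levels in LP4 differed from UI in opposite directions. Each run is the 250 bases before the RefSeq start (GRCm38.p6, the C57BL/6J reference rather than the C3H/HeN sequence), written 5′ to 3′ on the strand of the gene. Capitals mark matches, on either strand, to the AP-1 motif TGANTCA, the PU.1 core GAGGAA or the GC box GGGCGG.
*Mertk*, plus strand, chr2:128698665-128698914: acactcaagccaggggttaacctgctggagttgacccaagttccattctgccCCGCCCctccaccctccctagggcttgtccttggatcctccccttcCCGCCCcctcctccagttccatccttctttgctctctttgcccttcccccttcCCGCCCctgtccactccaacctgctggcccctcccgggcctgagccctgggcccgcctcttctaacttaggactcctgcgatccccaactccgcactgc
*Axl*, minus strand, chr7:25788734-25788983: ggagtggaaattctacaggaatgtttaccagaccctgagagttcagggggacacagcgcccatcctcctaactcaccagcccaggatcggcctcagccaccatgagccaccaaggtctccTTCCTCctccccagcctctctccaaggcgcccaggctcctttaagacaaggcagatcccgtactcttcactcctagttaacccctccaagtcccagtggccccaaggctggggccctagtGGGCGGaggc
*Trem2*, plus strand, chr17:48346151-48346400: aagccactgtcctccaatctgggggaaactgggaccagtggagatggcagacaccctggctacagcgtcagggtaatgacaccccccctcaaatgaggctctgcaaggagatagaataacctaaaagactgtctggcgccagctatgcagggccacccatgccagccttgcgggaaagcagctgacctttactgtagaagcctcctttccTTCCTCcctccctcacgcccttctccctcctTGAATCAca

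The *Mertk* window held 3 GC boxes, which begin 198, 152 and 99 bases before the start, and was 63.6% G or C. The *Axl* window held 1 PU.1 core and 1 GC box, at 130 and 10 bases. The *Trem2* window held a PU.1 core at 40 bases and an AP-1 match from 9 to 3 bases before the start. That match counts on both strands because the motif searched allows any base at its centre, while the stretch itself is not palindromic. None of the matches overlapped. Of 32851 promoters of the same length, 6.75% held the AP-1 motif, 23.3% the PU.1 core and 32.7% the GC box. The interferon-stimulated response element, searched as GAAA, any 2 bases and GAAA (2.98% of promoters), the EGR motif GCGTGGG (4.30%) and the NF-kB consensus (7.25%) were in none of the 8 receptor windows that the table holds, which lacks *Msr1* and *Scarb1*. A match is only a match of letters.

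*Msr1* (ENSMUSG00000025044, chromosome 8, 39581685 to 39642673, minus strand), class A scavenger receptor 1, was at 465 CPM in UI, 504 in LP1 and 859 in LP4. The 4-hour library stood highest, at 0.88 over UI on the log2 scale (0.86 to 0.91) and 0.77 over LP1. LP1 was closer to UI, with a ratio of 0.12. After every cell was thinned to 2000 UMIs, the share of cells with an *Msr1* UMI was 52.8% in UI, 55.9% in LP1 and 74.8% in LP4. Among neutrophil-like cells, which should lack the gene, 0 of 21, 0 of 20 and 0 of 28 had one, which allows a share of up to 16.1%, 16.8% and 12.3% by the exact interval. Thinning left out 122 cells of UI, 13 of LP1 and 45 of LP4. Without thinning the shares of all cells were 76.6%, 88.9% and 96.8%.

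*Marco* (ENSMUSG00000026390, chromosome 1, 120474538 to 120505024, minus strand), a class A receptor that binds bacteria and particles, was at 45.5 CPM in UI, 28.3 in LP1 and 23.5 in LP4. It was lower in both treated libraries, with log2 ratios of -0.69 (-0.79 to -0.58) and -0.95 (-1.06 to -0.85) to UI. Its UMIs were concentrated in few cells. In UI 5608 of the 6071 cells had no *Marco* UMI, while 31 cells with at least 10 each held 40.6% of them and the highest cell held 48. In LP4 35 cells held 44.7% of the UMIs and the highest held 84. At 2000 UMIs per cell its variance was 4.05 times its mean in UI, 2.88 times in LP1 and 2.17 times in LP4, against 1.01 to 1.03 times for *Scarb1*, a gene of like mean level. The share of thinned cells with at least 3 UMIs was 0.857% (0.639 to 1.13) in UI, 0.693% in LP1 and 0.432% (0.264 to 0.667) in LP4.

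*Cd36* (ENSMUSG00000002944, chromosome 5, 17781690 to 17888801, minus strand), the class B receptor for oxidised lipoproteins and fatty acids, was at 694, 791 and 800 CPM in UI, LP1 and LP4. The log2 ratio to UI was 0.19 in LP1 (0.17 to 0.21) and 0.20 in LP4 (0.18 to 0.23). *Scarb1* (ENSMUSG00000037936, chromosome 5, 125277087 to 125341094, minus strand), the receptor for high-density lipoprotein, was at 34.1, 40.6 and 35.0 CPM. Its ratio was 0.25 in LP1 (0.15 to 0.35) and 0.04 in LP4, where the interval of -0.06 to 0.14 held 0. In LP4 over UI both ratios were smaller in size than those of *Msr1* and *Marco*.

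*Stab1* (ENSMUSG00000042286, chromosome 14, 31139013 to 31168641, minus strand), stabilin 1, a clearance receptor for modified proteins and matrix fragments, was at 163 CPM in UI, 111 in LP1 and 77.4 in LP4. It was lower in both treated libraries, with log2 ratios of -0.55 (LP1) and -1.07 (LP4, -1.13 to -1.02) to UI, or 2.10-fold in LP4. It overlaps *Nt5dc2* on the other strand, which was at 114, 84.6 and 50.2 CPM. The 3′ kit keeps strand, and whether reads of one gene entered the other's count was not tested. *Mrc1* (ENSMUSG00000026712, chromosome 2, 14229392 to 14332057, plus strand), the mannose receptor, was at 148, 141 and 206 CPM. It was close to UI in LP1 (-0.08) and higher in LP4 (0.48, 0.43 to 0.52). These receptors, which are often read together as marks of alternatively activated macrophages, thus differed in opposite directions in LP4.

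*Mertk* (ENSMUSG00000014361, chromosome 2, 128698956 to 128802894, plus strand) was at 65.2 CPM in UI, 36.4 in LP1 and 35.0 in LP4. It was the receptor with the largest difference at 1 hour, a log2 ratio of -0.84 (-0.93 to -0.75), while LP4 over LP1 gave -0.05 (-0.14 to 0.04), an interval that held 0. *Axl* (ENSMUSG00000002602, chromosome 7, 25757273 to 25788705, minus strand) was at 24.9 CPM in UI, 21.6 in LP1 and 47.5 in LP4. It was lower by a log2 ratio of -0.20 in LP1 and higher by 0.93 (0.82 to 1.04) in LP4. As a share of the UMIs of both kinases, *Axl* made 27.6% in UI (26.1 to 29.2), 37.3% in LP1 (35.6 to 39.0) and 57.6% in LP4 (56.2 to 58.9). This share does not depend on how the libraries were scaled. Over whole libraries *Mertk* was the more abundant of the pair in UI and LP1, and *Axl* in LP4. The clusters described below did not all follow this order.

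*Trem2* (ENSMUSG00000023992, chromosome 17, 48346401 to 48354147, plus strand) was at 1616, 1511 and 964 CPM. It was lower in LP4 by a log2 ratio of -0.75 (-0.76 to -0.73), with -0.10 in LP1. In thinned cells its share with a UMI was 93.3%, 92.3% and 81.1%, against 1 of 21, 1 of 20 and 0 of 28 neutrophil-like cells. *Timd4* (ENSMUSG00000055546, chromosome 11, 46810800 to 46844332, plus strand), a receptor of resident macrophages, had 11 UMIs in UI, 10 in LP1 and 52 in LP4. Of the 52, 34 were in 1 cell, and 11 of 4670 LP4 cells had any. No difference in *Timd4* over cells was detectable at this depth.

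**Figure D2:**
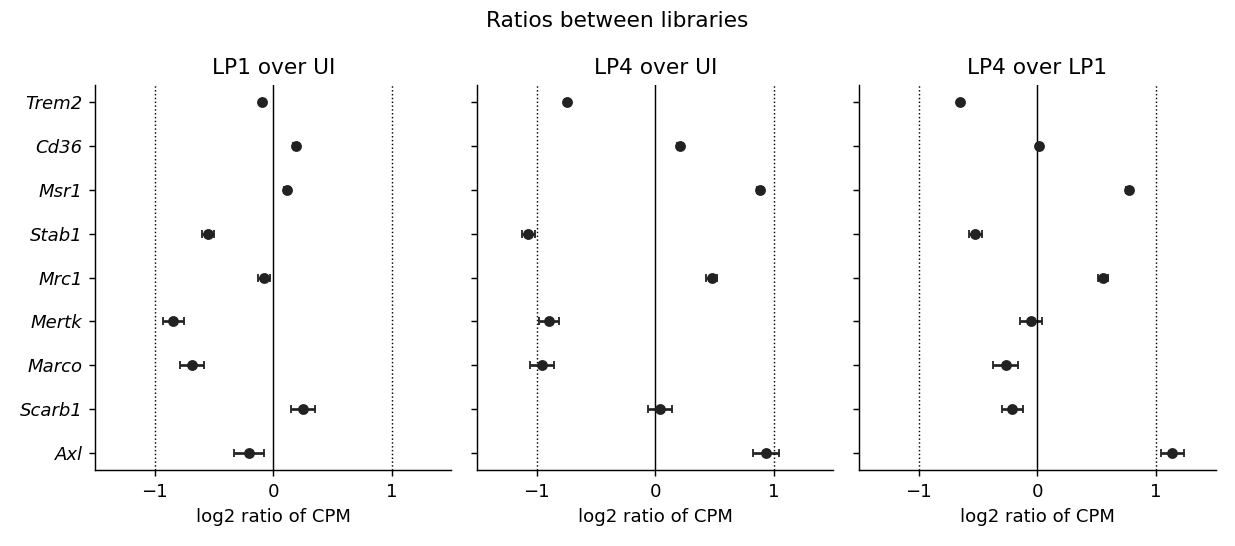
The log2 ratio of CPM for the 9 receptors at or above 10 CPM, in LP1 over UI, LP4 over UI and LP4 over LP1, with exact 95% intervals of counting error, and with dotted lines at 2-fold. *Mertk*, *Marco* and *Stab1* lay furthest to the left in LP1 over UI, while *Msr1*, *Mrc1* and *Axl* lay furthest to the right in LP4 over UI.

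For other receptors the share of thinned cells with a UMI was as follows. The share for *Stab1* was 26.1% in UI, 19.2% at 1 hour and 14.0% at 4 hours, and that for *Mertk* 12.2%, 7.56% and 6.46%. *Axl* was found in 4.84%, 3.90% and 8.35%, and *Mrc1* in 22.3%, 21.1% and 26.3%. *Cd36* was found in 57.3%, 63.0% and 60.3% and *Marco* in 4.17%, 3.31% and 3.35%, and since neither follows the CPM from LP1 to LP4, no order of these libraries is read from them. Neutrophil-like cells had no *Mertk*, *Axl* or *Mrc1* UMI in any library, and 1, 1 and 0 cells had *Stab1*. Without thinning, *Mertk* was found in 23.6%, 22.4% and 24.3% of cells, so its shares differ between libraries only once depth is made equal. Thinned cells held a median of 3 of the 10 receptors in each library.

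The cells were clustered without the 10 receptors, on genes whose CPM differed by less than 1.5-fold between libraries. Each of these genes was first centred within each library, which lines up the libraries. How far the cluster shares and the matching of clusters between libraries rest on this centring was not tested. The clustering gave 10 clusters, A to J by size, of which A to F had at least 50 cells in every library. Clusters A (led by *Egr3*, *Apoe* and *Cd86*), B (*Mgll*, *Mmp12* and *Itgax*), C (*Hal*, *Il4ra* and *Ms4a4a*) and D (*Ccnd1* and *Mcm* genes) each had 6 or 7 of the 10 macrophage markers in at least 50% of their cells. No macrophage marker was among their 10 leading genes, and in B the dendritic cell marker *Itgax* was, so clusters are compared by letter and not as a class. Cluster E, led by histone and mitosis genes, stayed unnamed, and F was dendritic cell-like. E and F had 7 and 6 of the 10 macrophage markers in at least 50% of their cells, so this count does not set them apart from A to D. The 10 leading genes of A were all at least 2-fold above the other cells within each library taken alone, as were those of B. Of those of D 10, 10 and 7 were, and of those of C only 2, 2 and 1, so C was poorly set apart. The leading genes were picked on the 3 libraries pooled, so these counts are no independent check of the clusters. Their levels within a cluster could differ between libraries. In A *Slc9a9* was at 589 CPM in UI and 91.5 in LP4, and *F13a1* at 97.5 and 404. Cluster A held 29.4%, 25.1% and 24.3% of the cells of UI, LP1 and LP4, and B 25.1%, 27.0% and 25.1%. C held 20.6%, 19.1% and 29.2%, D 15.8%, 18.5% and 13.3%, and E 6.64%, 8.11% and 4.82%.

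Of the 9 receptors, 6 differed in 1 direction in LP4 over UI in all of A to F. The share of all genes that did so was not computed, so this count is not read as a trait of the receptors. *Trem2* was lower in each cluster, by log2 ratios of -0.80 to -0.72, and *Stab1* by -1.36 to -0.89. *Marco* was lower by -1.22 to -0.41. *Msr1* was higher in each by 0.83 to 1.03, and *Axl* by 0.73 to 1.44, with intervals that left out 0. *Mrc1* was higher in all 6 as well, from 0.14 in A to 0.87 in D, and in 5 the interval left out 0. At resolutions of 0.3 and 0.8, with 4 and 9 clusters compared, *Trem2*, *Stab1*, *Msr1* and *Axl* kept 1 direction in every cluster. *Mrc1* and *Marco* did so at 0.3 only. At 0.8 *Mrc1* was higher in 8 of 9 clusters and lower in that led by *Egr3* and *Slc9a9* (-0.75), and *Marco* was lower in 8 and higher in 1 (1.31), where the interval held 0.

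*Mertk* did not behave as the library totals did. In cluster A it was at 162.9 CPM in UI, 106.6 in LP1 and 23.3 in LP4, which for LP4 over UI is -2.80 on the log2 scale (-3.01 to -2.60). In cluster B it was at 26.0, 17.2 and 55.6 CPM, a ratio of 1.10 (0.90 to 1.30). Cluster A held 1786 cells of UI and 1135 of LP4. At resolution 0.8 the cluster led by *Egr3* and *Slc9a9* held 1733 and 267, so most LP4 cells of A fell outside it. Whether -2.80 compares like cells was not tested. Cluster C was also lower in LP4 than in UI, with 79.6, 46.2 and 34.2 CPM (-1.22). In D the level was 17.9 CPM in UI, 7.3 in LP1 and 20.3 in LP4. At 1 hour *Mertk* was lower than in UI in all 6 clusters, by -1.28 to -0.59, and in 5 the interval left out 0. The opposite directions were thus seen at 4 hours. Cluster A supplied 49.5% of the *Mertk* UMIs in UI and 11.3% in LP4, and cluster B 11.1% and 47.1%. The nearly level total from LP1 to LP4 thus covered unlike ratios, among them -2.19 in A, -0.43 in C, 1.46 in D and 1.69 in B. The order of *Mertk* and *Axl* also differed between clusters. In A and C it changed in LP4 as in the library totals. In B *Mertk* was above *Axl* in every library, at 55.6 and 37.5 CPM in LP4. In D and F *Axl* was above *Mertk* in every library, in UI at 23.9 and 17.9 CPM in D and 66.5 and 27.1 CPM in F. Each cluster of each library is 1 set of cells, and the difference between clusters was not tested.

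**Figure D3:**
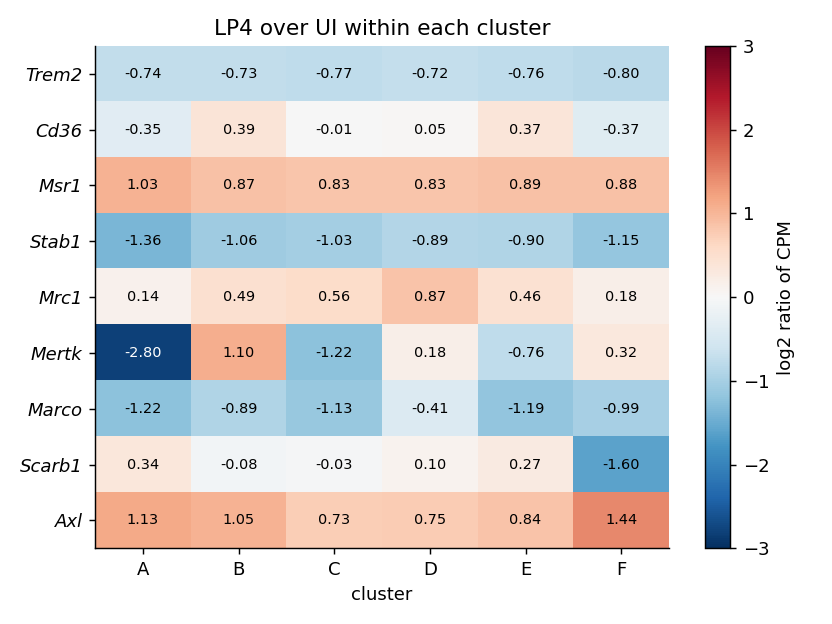
Log2 ratio of CPM in LP4 over UI for 9 receptors (rows) within clusters A to F (columns), with red for higher and blue for lower in LP4. *Trem2*, *Stab1* and *Marco* were lower and *Msr1*, *Mrc1* and *Axl* higher in every column, while *Mertk* ran from -2.80 in A to 1.10 in B.

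**Figure D4:**
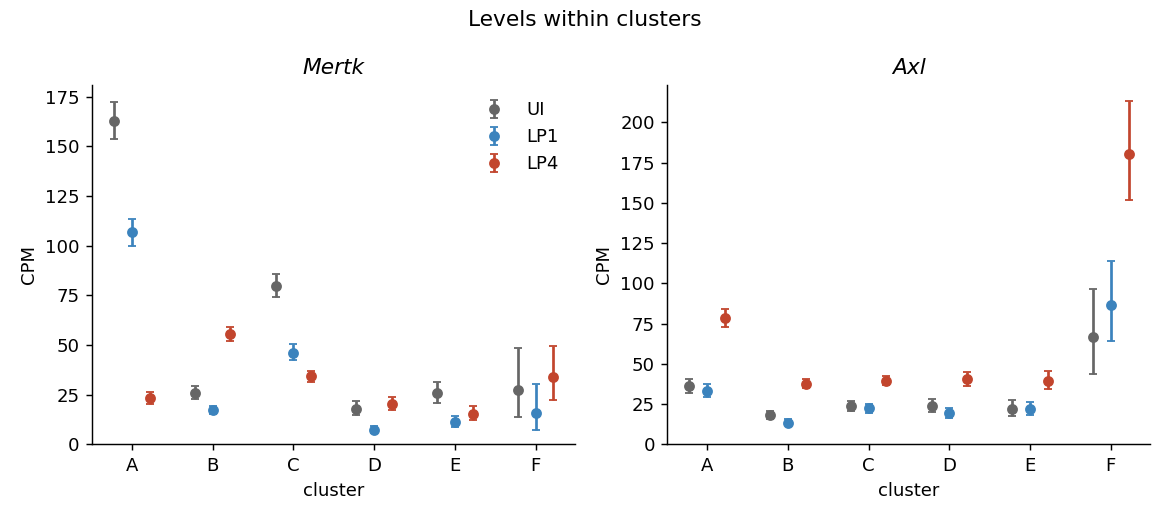
CPM of *Mertk* (left) and *Axl* (right) in clusters A to F of each library, with exact Poisson 95% intervals. The cluster with the highest *Mertk* changed from A in UI and LP1 to B in LP4, while among these clusters *Axl* was highest in F in each library and in LP4 was above UI in every cluster.

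*Mertk* also differed in opposite directions at other clustering resolutions, which regroup the same cells and are no independent check. At 0.3 the ratio of *Mertk* was lowest at -2.63, in the cluster led by antigen presentation genes, *Egr3* and *Apoe*, and highest at 1.09 in that led by *Mgll*. At 0.8 it ran from -3.50, in the cluster led by *Egr3* and *Slc9a9*, to 1.39, in that led by *Mmp12*. The first of these held 28.5% of the cells of UI and only 5.72% of those of LP4, 267 cells, while a cluster led by *Gbp4* and *Cxcl5* went from 1.48% to 21.8%, so -3.50 compares unlike shares of the libraries. The genes whose levels followed *Mertk* from cell to cell also differed between UI and LP4. In UI the 5 most alike by Pearson's r over 6071 cells were *Ccl7* (0.407), *Cd86* (0.341), *Ccl3* (0.322), *Rcan1* (0.313) and *Slc9a9* (0.306). In LP1 the same r were close to those of UI, at 0.402, 0.351, 0.350, 0.302 and 0.315. In LP4 they were 0.017, 0.042, -0.059, 0.001 and 0.012. *Itgax*, a leading gene of cluster B, had an r with *Mertk* of -0.110 in UI and 0.175 in LP4. These r are descriptions of cells that share a library and differ in depth.

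*Cd36* followed *Lpl*, lipoprotein lipase, most closely in every library, with r of 0.501 in UI, 0.548 in LP1 and 0.630 in LP4. Next came *Prdx1*, *Mmp12*, *Lipa* and *Myof* in UI, and *Ftl1* and *Rnf128* in LP4. In UI *Lpl* also led the list of *Msr1* (0.332), which also held *Cd36* itself (0.236). *Stab1* and *Mrc1* shared in UI the list *Pf4*, *Selenop*, *Slc9a9* and *Ccl7* and stood in each other's (0.236). In LP4 the r of *Stab1* and *Mrc1* with *Ccl7* were 0.061 and 0.093, against 0.186 and 0.203 in UI, and those with *Pf4* were 0.273 and 0.266. *Trem2* in UI followed *Lgals3* (0.287), *Ftl1*, *Cst3*, *Fth1* and *S100a4*, of which *Ftl1* and *Fth1* were at ranks 22 and 29 in LP4. At a lower minimum level, chosen after the values were seen, *Axl* followed *Ifitm1* (0.160 in UI, 0.251 in LP4) and *Cd74* (0.151 and 0.247), and *Marco* followed *Saa3* and *Hal* (0.132 and 0.116 in UI).

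Of clusters A to F, *Cd36* was lowest in A in every library (257, 344 and 202 CPM) and highest in B (911, 1009 and 1194 CPM). In LP4 over UI it was lower in A, by -0.35, and higher in B, by 0.39, so its small library difference also covered unlike clusters. Among A to F *Axl* was highest in the dendritic cell-like cluster F, at 66.5, 86.3 and 180.6 CPM. *Scarb1* stood apart as the receptor with the highest level in neutrophil-like cells, at 76.5 CPM in UI (33.0 to 150.7), 133.8 in LP1 (79.3 to 211.5) and 45.9 in LP4 (22.9 to 82.1), on 8, 18 and 11 UMIs. *Msr1*, *Marco*, *Mrc1*, *Mertk* and *Axl* had no UMI in those cells.

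A set of interferon-induced genes, 13 of 14 of them at least 2-fold higher in LP4 than in UI, was used to order the cells of each library by the share of their UMIs in it. The cells of a library were cut into 4 bins of equal size. In LP4 the median share went from 0.405% in the lowest bin to 2.09% in the highest. *Mertk* was at 20.2, 32.3, 41.7 and 45.9 CPM from the lowest to the highest bin of LP4, which is 1.18 (0.98 to 1.39) between the ends on the log2 scale. *Axl* was at 39.2, 40.1, 49.4 and 62.8 CPM (0.68, 0.53 to 0.84), and *Mrc1* was higher at the upper end by 0.39. *Trem2* was at 917, 990, 993 and 947 CPM and *Msr1* at 800, 892, 904 and 827 CPM, highest in the middle bins, with 0.05 (0.01 to 0.08) between the ends for each. With the share taken on thinned cells *Msr1* gave 0.01 (-0.03 to 0.05), an interval that held 0. *Cd36* was lower at the upper end by -0.31. In UI, where the highest bin had a median share of 0.144%, *Axl* (1.03) and *Mertk* (0.63) were likewise higher at the upper end. The highest bin thus held more of both kinases than the lowest bin in each library. Over whole libraries *Mertk* was at 65.2 CPM in UI and 35.0 in LP4, while in cluster B it was at 26.0 and 55.6 CPM. Whether the interferon-induced genes and these levels are linked was not tested. In UI and LP1 the median share was 0 in the lowest bin and 0.024% and 0.019% in the next, so the order there rests on few UMIs. The clusters in the bins of UI and LP1 were not compared.

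**Figure D5:**
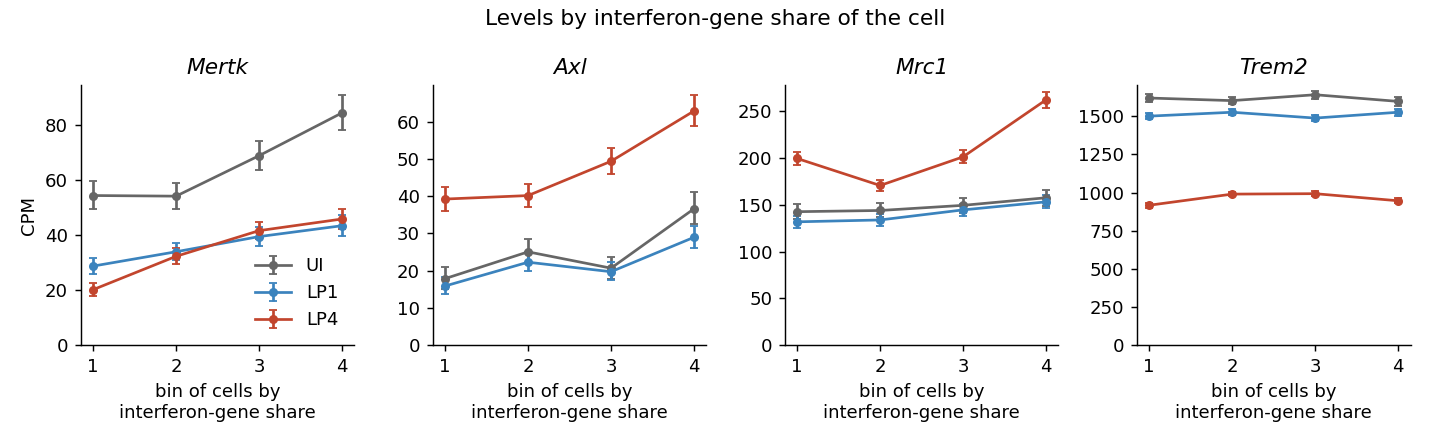
CPM of *Mertk*, *Axl*, *Mrc1* and *Trem2* in 4 equal bins of the cells of each library, ordered by the share of UMIs in interferon-induced genes (1 is lowest), with exact Poisson 95% intervals. *Mertk* and *Axl* were higher in the top bin than in the bottom bin of each library, and *Trem2* in LP4 lay between 917 and 993 CPM in the 4 bins.

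The bins held unlike mixtures of clusters: in LP4, A made 22.3% of the lowest and 39.5% of the highest bin, and B 17.2% and 18.8%. D made 18.3% and 8.65%, E 9.08% and 1.46%, and the neutrophil-like cells 2.40% and 0%. Within clusters of LP4, cells above over cells below the middle of the same share gave *Mertk* log2 ratios of 0.97 (0.78 to 1.16) in B, 0.92 in D and 0.38 in A, and 0.18 (-0.05 to 0.41) in C. E gave 0.68 (-0.02 to 1.41), and F gave -0.84 (-2.26 to 0.43) on 8 UMIs above and 18 below the middle. The intervals of C, E and F held 0, so no direction is read from them. The ratio of *Axl* was above 0 in all of A to F, from 0.21 to 0.60, and its interval left out 0 in A, B, C and F.

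The ligands, partners and downstream genes of these receptors were taken from lists, and none of them was called in LP1 over UI. Over all genes only 0.765% were called higher and 0.506% lower there, so this is not read as a result about the lists. Among 16 bridging molecules and other efferocytosis receptors that reached 10 CPM, 3 were at least 2-fold higher and 2 lower in LP4 than in UI, with a median log2 ratio of -0.22. Over all genes 10.5% were higher and 9.95% lower, and 2 of 16 is near the latter. *Pros1*, protein S, a ligand of MERTK, went from 14.7 to 35.7 CPM (1.28), and *Thbs1*, a bridge to CD36, from 37.3 to 90.0 CPM (1.27). *C1qa*, a chain of complement C1q, went from 70.6 to 26.7 CPM (-1.40). *Gas6*, the ligand of AXL and MERTK, was at 31.0 CPM in UI, 39.4 in LP1 and 39.4 in LP4. *Tyro3*, the third kinase of the family, had 1, 5 and 5 UMIs. Of 8 other scavenger receptors 1 was called higher, near the 10.5% of all genes, *Cxcl16*, at 149, 137 and 336 CPM, and the median was 0.24.

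Of 17 genes of engulfment and TREM2 signaling, 5 were at least 2-fold lower in LP4 than in UI and 1 was higher, with a median log2 ratio of -0.50, beside 9.95% lower and 10.5% higher over all genes. *Dock2*, a Rac activator, was at 710, 644 and 181 CPM (-1.97). *Pik3cb*, a catalytic subunit of PI3 kinase, was at 153, 183 and 42.7 CPM (-1.84), and *Inpp5d*, the lipid phosphatase SHIP1, at 138, 94.2 and 40.5 CPM (-1.77). *Tyrobp*, the adaptor of TREM2, was at 3478, 2299 and 1804 CPM, a ratio of -0.60 in LP1 over UI, beside -0.10 for *Trem2*. Of 16 genes of lipid handling, 4 were lower and 0 higher, with a median of -0.69, beside the same 9.95% and 10.5%. They were led by *Mylip*, which targets the LDL receptor for breakdown (73.2, 79.5 and 10.7 CPM), and by the nuclear receptors *Ppard* (69.7, 64.0 and 24.0 CPM) and *Pparg* (57.0, 62.0 and 24.5 CPM).

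Receptors such as MERTK, AXL and TREM2 are also cut from the surface by proteases, which RNA does not show. Of 5 sheddases and regulators, 3 were at least 2-fold higher in LP4 than in UI and 0 lower, with a median of 1.04, beside 10.5% and 9.95% over all genes. *Timp1*, an inhibitor of metalloproteinases, went from 13.1 to 183 CPM (3.81), *Rhbdf2*, the partner that carries ADAM17 to the surface, from 40.4 to 109 CPM (1.43), and *Adam9* from 26.3 to 53.9 CPM (1.04). *Adam17* itself was at 211, 230 and 192 CPM. Of 4 genes of don't-eat-me signals and their receptors none was called in LP4 over UI (median -0.12), beside the same 10.5% and 9.95%. In LP4 over LP1 1 was called higher, *Cd47* (272 CPM in LP1 and 570 in LP4, 1.07), beside 8.59% of all genes. None of the 6 TREM family relatives reached 10 CPM.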

How the data were processed

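Count matrices were deposited for 3 libraries (UI, LP1 and LP4, 1 each). The authors made these counts of UMIs per gene and barcode with Cell Ranger (7.1.0 in the submitters' processing notes and the matrix headers) on mm10; whether intronic reads were counted is not given in the sources used here. Cells were kept above 500 UMIs and 500 genes and below 5% mitochondrial UMIs, and their counts were summed per library. CPM, ratios with exact conditional binomial intervals and exact Poisson intervals were computed with scipy 1.17.1. Genes with at least 10 CPM in 1 library entered counts of 2-fold calls. A count test between groups was not run, since each had 1 library.

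Shares of cells were computed after thinning to 2000 UMIs. Clusters came from Leiden clustering (scanpy 1.11.5, resolution 0.5, 30 components, 20 neighbours, seed 20). Before it, genes were centred within each library. The doublet caller Scrublet marked 0% to 0.0214% of cells and had not worked, so no doublets were removed, and the 5% of cells with the highest score were left out as an alternative. TMM factors came from edgeR 4.0.16. The ratio was tested on simulated counts. Thinning was checked only by the total of 2000 UMIs in thinned UI cells. Members, lists and tests were chosen with earlier results of these data known. Named genes were all members, at most 3 called genes per list and comparison with the largest ratio, and the 5 genes of at least 20 CPM with the highest r to each member of at least 50 CPM in UI; *Gas6*, *Tyro3*, *Tyrobp* and *Adam17* were named after their values were seen. Gene coordinates are those of GENCODE vM21 (GRCm38), the same build as mm10. The files held 0 columns of other samples.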

Additional observations from a re-analysis of the deposited data

Results flagged for a closer look

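In LP4 over UI, 3 receptors had an interval above 0 in some cluster and below 0 in another. The log2 ratios were lowest and highest for *Mertk* at -2.80 in cluster A and 1.10 in B, for *Cd36* at -0.37 in F and 0.39 in B, and for *Scarb1* at -1.60 in F and 0.34 in A. In LP4 over LP1 the same held for *Mertk* (-2.19 in A and 1.69 in B), *Cd36* (-0.77 in A and 0.24 in B) and *Marco* (-0.75 in A and 2.88 in F). The *Marco* value in F rests on 2 UMIs in LP1 and 20 in LP4, and the *Scarb1* value in F on 16 UMIs in UI and 10 in LP4. Each cluster of each library is 1 set of cells, so none of these differences between clusters was tested.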

How the results depend on the processing

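The counts of receptors past 2-fold were small and depended on scaling and threshold. In LP4 over UI the count of higher receptors was 0, and 2 (*Msr1*, *Axl*) with TMM factors, with median-of-ratios factors or at 1.5-fold, and 1 (*Timd4*) with no minimum CPM. The count of lower receptors was 1, and 0 with either set of factors, 2 (*Stab1*, *Marco*) without the highest doublet scores, 2 (*Stab1*, *Mertk*) when cells weighed equally and 4 at 1.5-fold. At 1.5-fold the count was 2 lower in LP1 over UI (*Marco*, *Mertk*), and in LP4 over LP1 2 higher and 1 lower (*Trem2*). With no minimum CPM it was 2 higher in LP4 over LP1. The share of all genes past 1.5-fold was not computed, so the counts at 1.5-fold are not read as a result about the receptors. By construction the factors shift every ratio alike. They made 75.4% and 76.8% of all calls in LP1 over UI higher, against 60.2% by CPM, and 64.5% and 67.2% in LP4 over UI, against 51.4%; in LP4 over LP1 median-of-ratios factors made it 62.9%, against 52.6%.

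Over 30 ratios and 11 alternatives, 1 of them (without the 1% of cells highest in a receptor) chosen after seeing the data, 4 of 327 values changed sign: *Mrc1* in LP1 over UI (0.00) and *Mertk* in LP4 over LP1 (0.04 and 0.08) under the factors, and *Timd4* in LP4 over UI in clusters A to D and I alone (-0.96). Size was less stable than sign. Of the 30 ratios, 21 left their main interval with TMM factors, 23 with median-of-ratios factors and 11 when cells weighed equally. Of the 327 values, 12 lay on the other side of 2-fold from the main value. In LP4, 5 receptors had a higher level in the top bin by interferon genes with an interval above 0. With the share taken on thinned cells the interval of *Msr1* (-0.03 to 0.05) held 0. Cells above over cells below the middle within clusters were also added later. They gave 5 receptors with an interval above 0 in B, 3 in A, C and E and 2 in D and F. These were not the same genes throughout. In E they were *Msr1*, *Marco* and *Stab1*, of which *Marco* and *Stab1* were not among the 5 of the bins. The cause was not tested. Shares of cells kept their count of higher receptors within 1.5 times at each depth, though not the same receptors. At 3000 UMIs per cell *Cd36* was no longer among them, with 68.3% in UI and 68.4% in LP4. *Scarb1* was among them only without thinning, with 17.3% and 33.2%. No paired analysis was possible because each group has 1 library, and for the same reason no replicate could be left out. Depth limits any statement on *Timd4*.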
